A study of Mus musculus with 237 samples.

Results

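Mitochondrial ribosomal protein genes were followed in single cells of the embryonic mouse kidney. They were taken as all entries of the deposited table whose symbol begins with Mrpl or Mrps followed by a number and at most 1 letter, which gave 76 of 36186 entries. Of these, 47 carry large-subunit names (Mrpl) and 29 carry small-subunit names (Mrps). The rule used the symbol and no measured value. Mitochondria hold their own ribosome, the mitoribosome, which makes the few proteins that mitochondrial DNA encodes, all of them parts of the oxidative phosphorylation machinery. Its RNAs come from mitochondrial DNA, while every one of its proteins is encoded in the nucleus, made in the cytosol and imported. The mature kidney tubule is rich in mitochondria, and the cells studied here belong to the lineages from which tubules and stroma form.

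Each sample was 1 cell, released from the kidney with proteases, sorted by flow cytometry and processed on a Fluidigm C1, a microfluidic device that captures cells singly. The groups were 44 Pax2 mutant cap mesenchyme cells of E18.5, where E gives the embryonic day (E18.5 mutant), 71 wild-type interstitial cells of that day (E18.5 interstitium), 74 wild-type cap mesenchyme cells with their progeny (E18.5 cap), 29 Pax2 mutant cap mesenchyme cells of the earlier day (E13.5 mutant) and 18 wild-type cap mesenchyme cells with their progeny (E13.5 cap). Nephrons arise from progenitor cells in the cap mesenchyme, the interstitium is the stroma around it, and the transcription factor PAX2 is needed for nephrons to form. The strain is given as mixed for all cells, the titles of the interstitium cells carry FoxD1_GCE, and the labels name neither the sorting marker, the Pax2 allele nor the embryo of a cell. A further cell, whose labels name different lineages, entered no comparison. Because no embryo is named, each group counts as 1 sample, no test between groups was made, and every SD is the spread between cells. A difference is called here when the mean log2(RPKM + 1) of the groups differs by 1 log2 unit or more, where RPKM is a read count scaled for transcript length and for the mapped reads of the cell.

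The groups differed in more than their labels. Genes reaching 1 RPKM numbered 3643 per cell (median) in E18.5 mutant cells, 5178 in E18.5 interstitium cells, 5210.5 in E18.5 cap cells, 4560 in E13.5 mutant cells and 5566 in E13.5 cap cells. The table holds no counts, so the depth of each cell is unknown and this number stands in for it. Each group has its own date in the titles, so group and date cannot be told apart, and all E18.5 mutant cells lie in a pool (4) that holds no other group. Xist, an RNA of the inactive X chromosome, was present and Y-linked RNA absent in 42 of 44 cells of the E18.5 mutant group, 27 of 29 of the E13.5 mutant group and 67 of 74 of the E18.5 cap group. The reverse held for 70 of 71 E18.5 interstitium and 17 of 18 E13.5 cap cells. No member lies on a sex chromosome. Pax2 itself was at 1 RPKM or more in 0 of 44 E18.5 mutant cells, which allows a share of up to 6.82%, and in 18 of 71 E18.5 interstitium, 56 of 74 E18.5 cap, 17 of 29 E13.5 mutant and 15 of 18 E13.5 cap cells. Of 10 stromal markers, which included Pdgfra and Col1a1, the mean score was 4.94 in E18.5 mutant cells, 4.01 in E18.5 interstitium, 0.78 in E18.5 cap, 1.99 in E13.5 mutant and 1.26 in E13.5 cap cells. Of 10 nephron progenitor markers, which included Six2, it was 0.68, 1.71, 3.78, 1.13 and 3.43 in the same order, and Pax2, Pax8 and Cited1 were at 0 in all E18.5 mutant cells. The E18.5 mutant cells therefore carried the label of cap mesenchyme with more stromal than progenitor transcripts.

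The sequences before the start sites of 7 members are shown, since their values are described in full below. Genes for mitochondrial proteins are known to share promoter motifs for the factors NRF1, YY1 and the ETS family, which includes the nuclear respiratory factor GABP. Of the 76 members, 67 matched the RefSeq promoter table (GRCm38.p6). The 250 bases before the start site are given 5′ to 3′ in lower case, with motif matches in capitals. Mrpl12 (chr11:120484387-120484636, plus strand) held an NRF1 match starting 81 bases before the start site. Mrps18a (chr17:46110754-46111003, plus strand), Mrpl22 (chr11:58171414-58171663, plus strand) and Mrpl18 (chr17:12916092-12916341, minus strand) held ETS family matches starting 26, 53 and 240 bases before it. Mrpl23 (chr7:142532782-142533031, plus strand), the member with the most negative difference between E18.5 mutant and cap cells, held no match to these 3 motifs in these 250 bases. Neither did Mrps18b (chr17:35916441-35916690, minus strand) or Mrps6 (chr16:92058086-92058335, plus strand). The windows searched for the counts below also reach past the start site. In those windows Mrps18b held an ETS family match and Mrps18a also a YY1 match, while Mrpl23 and Mrps6 held none of the 3.
Mrpl12: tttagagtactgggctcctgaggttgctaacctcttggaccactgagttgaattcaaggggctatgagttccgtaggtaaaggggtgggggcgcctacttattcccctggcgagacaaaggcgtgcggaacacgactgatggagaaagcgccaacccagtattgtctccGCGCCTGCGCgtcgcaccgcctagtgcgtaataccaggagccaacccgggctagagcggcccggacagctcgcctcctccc
Mrps18a: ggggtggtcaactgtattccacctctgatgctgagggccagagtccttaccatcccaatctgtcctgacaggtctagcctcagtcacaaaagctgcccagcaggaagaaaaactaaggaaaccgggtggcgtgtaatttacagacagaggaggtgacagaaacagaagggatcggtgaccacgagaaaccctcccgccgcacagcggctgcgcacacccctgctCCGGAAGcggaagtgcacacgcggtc
Mrpl22: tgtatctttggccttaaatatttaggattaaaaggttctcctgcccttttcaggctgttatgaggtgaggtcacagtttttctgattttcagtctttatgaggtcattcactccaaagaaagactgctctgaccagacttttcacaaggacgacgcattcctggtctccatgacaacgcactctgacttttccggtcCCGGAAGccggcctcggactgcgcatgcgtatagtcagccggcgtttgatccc
Mrpl18: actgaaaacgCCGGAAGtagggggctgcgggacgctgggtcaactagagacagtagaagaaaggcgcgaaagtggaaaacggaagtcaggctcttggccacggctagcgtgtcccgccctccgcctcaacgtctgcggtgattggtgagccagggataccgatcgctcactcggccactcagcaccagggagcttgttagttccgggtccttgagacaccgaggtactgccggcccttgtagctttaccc
Mrpl23: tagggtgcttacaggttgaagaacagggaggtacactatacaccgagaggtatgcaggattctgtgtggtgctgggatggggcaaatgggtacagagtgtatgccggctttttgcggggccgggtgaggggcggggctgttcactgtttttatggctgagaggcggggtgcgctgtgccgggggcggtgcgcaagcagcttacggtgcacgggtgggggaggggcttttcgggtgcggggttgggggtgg
Mrps18b: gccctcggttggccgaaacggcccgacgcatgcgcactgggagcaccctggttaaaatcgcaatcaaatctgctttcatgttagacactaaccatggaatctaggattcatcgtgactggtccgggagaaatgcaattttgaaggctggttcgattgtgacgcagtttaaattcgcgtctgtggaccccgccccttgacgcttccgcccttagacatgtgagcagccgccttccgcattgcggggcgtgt
Mrps6: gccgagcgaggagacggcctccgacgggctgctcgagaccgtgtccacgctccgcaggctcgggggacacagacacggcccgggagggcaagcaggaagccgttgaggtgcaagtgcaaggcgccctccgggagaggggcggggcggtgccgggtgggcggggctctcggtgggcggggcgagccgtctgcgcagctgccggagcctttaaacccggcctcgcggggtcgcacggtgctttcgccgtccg

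Motifs were searched on both strands of windows from 250 bases before to 50 bases after each start site, without regard to overlap between motifs. The NRF1 motif (GCGCA, any base, then GCGC) was found for 12 of 67 members (17.9%), against 7.17% of 17492 protein-coding genes with a window. The ETS family motif (CCGGAAG) was found for 24 members (35.8%), against 12.9% of those genes, and the YY1 motif (AAGATGGCG) for 8 members (11.9%), against 2.14%. At least 1 of these 3 was found for 39 members (58.2%), against 3493 of the 17492 genes, and 28 members held none. The SP1 motif GGGCGGG (41.8% against 36.9%), the NFY motif CCAAT (40.3% against 42.3%) and the MYC E-box CACGTG (7.46% against 8.91%) were about as frequent in members as in all coding genes, and TATAAA was less frequent (7.46% against 14.8%). A match describes letters in a window and not a bound site. Mrpl13, Mrpl15, Mrpl19, Mrpl38, Mrpl4, Mrpl54, Mrps28, Mrps34 and Mrps35 were not among the matched members.

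The members lie on 17 chromosomes, with 10 on chromosome 11, 8 on chromosome 17 and 7 on chromosome 6. Another protein-coding gene started within 1000 bases upstream in the opposite direction, without overlap of the starts, for 17 of 76 members (22.4%), against 6.78% of 21951 coding genes in the GENCODE M21 annotation. Mrpl46 and Mrps11 run in opposite directions from starts that overlap in that annotation, and were not counted. Examples are Mrps18c with Helq (29 bases between starts), Mrpl54 with Apba3 (26) and Mrpl49 with Fau (59). Exons of 23 members overlap those of another protein-coding gene, 4 of them on the same strand, a count not computed over all coding genes. The handling of strand is not stated, so reads of such pairs cannot be told apart. Among the members named below this holds for Mrpl9, Mrpl13, Mrpl18, Mrpl19, Mrpl27, Mrpl36, Mrpl43, Mrpl47, Mrpl48, Mrpl49, Mrps7, Mrps25 and Mrps30 on the opposite strand, and for Mrpl53, Mrps6 and Mrps34 on the same strand. The partners of those described in full are Mtbp for Mrpl13, Tcp1 for Mrpl18, Gcfc2 for Mrpl19 and Slc5a3 for Mrps6.

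Transcripts of the family were found in every group, and fewest members per cell were found in E18.5 mutant cells. A cell held a median of 25 members at 1 RPKM or more in the E18.5 mutant group (range 10 to 54), 50 in E18.5 interstitium (17 to 72), 51.5 in E18.5 cap (6 to 71), 42 in E13.5 mutant (8 to 64) and 61 in E13.5 cap (25 to 72). The member score, the mean log2(RPKM + 1) over all 76 genes of a cell, averaged 1.84 ± 0.70 in E18.5 mutant, 3.21 ± 0.91 in E18.5 interstitium, 3.10 ± 1.28 in E18.5 cap, 2.44 ± 1.31 in E13.5 mutant and 4.09 ± 0.91 in E13.5 cap cells (SD). The ranges of all groups overlapped, and the lowest scores of E18.5 cap (0.40) and E13.5 mutant cells (0.33) lay below that of E18.5 mutant cells (0.55). Still, 43 of 44 E18.5 mutant cells lay below the median E18.5 cap cell, and 27 of 29 E13.5 mutant cells lay below the median E13.5 cap cell.

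**Figure D1:**
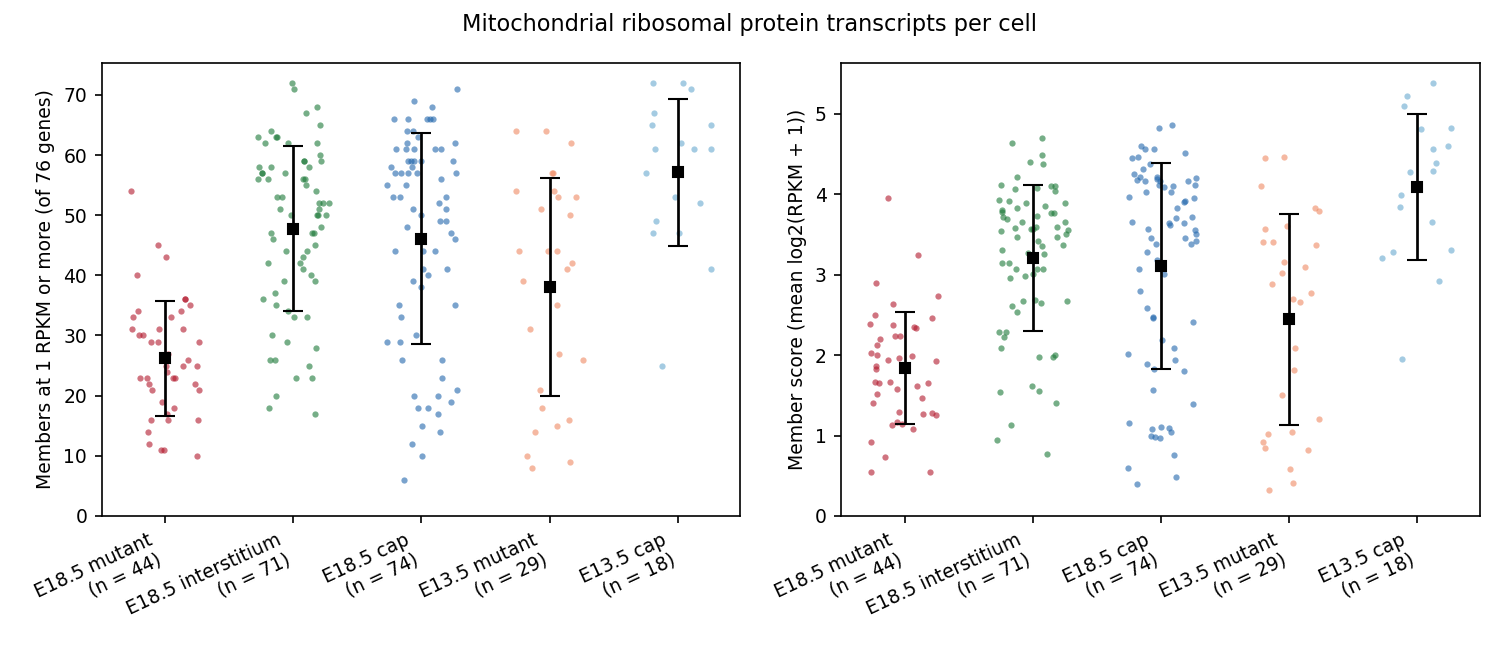
Number of members at 1 RPKM or more (left) and member score as mean log2(RPKM + 1) over 76 genes (right) in each cell, by group; points are cells, squares are means and bars are SDs between cells. The E18.5 mutant cells sit lowest on average (score 1.84) and the E13.5 cap cells highest (4.09), with overlapping ranges.

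The summed RPKM of the members gave the same order of groups at the ends and smaller gaps. The members held a median of 0.623% of the RPKM sum of a cell in E18.5 mutant, 0.802% in E18.5 interstitium, 0.829% in E18.5 cap, 0.808% in E13.5 mutant and 1.13% in E13.5 cap cells. Among cells that held a member, the level of the median member was not lowest in the E18.5 mutant. The median over members of the median RPKM among cells with the gene was 51.1 in E18.5 mutant, 36.3 in E18.5 interstitium, 36.8 in E18.5 cap, 29.2 in E13.5 mutant and 45.7 in E13.5 cap cells. The lower scores of E18.5 mutant cells therefore came with fewer cells holding each transcript rather than with lower values in the cells that held it. The median member was detected in 31.8% of E18.5 mutant, 63.4% of E18.5 interstitium, 62.2% of E18.5 cap, 50% of E13.5 mutant and 77.8% of E13.5 cap cells.

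Levels spread widely over the family. Averaged over the 5 groups with equal weight, the highest mean log2(RPKM + 1) was that of Mrpl42 (5.45), a large-subunit protein, followed by Mrps21 (5.22), Mrpl18 (5.15), Mrpl13 (5.04), Mrps33 (4.82), Mrpl28 (4.73), Mrpl20 (4.56), Mrpl30 (4.42), Mrpl12 (4.36) and Mrpl54 (4.25). The lowest were Mrpl53, listed at 0 in all grouped cells, Mrps30 (0.88), whose human homologue has been placed in the large subunit despite its name, Mrpl3 (1.14), Mrps22 (1.17) and Mrps31 (1.35). The median member reached 1 RPKM in 56.4% of the grouped cells. Mrpl13 did so in all of them, as did 67 of the 36186 entries. The highest group was E13.5 cap for 60 of the 75 members with any value. The lowest was E18.5 mutant for 58 members, E13.5 mutant for 16 and E18.5 cap for 1, which was Mrpl3. The same counts over all entries were not computed. Gene number per cell was also highest in E13.5 cap cells (median 5566) and lowest in E18.5 mutant cells (3643).

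**Figure D2:**
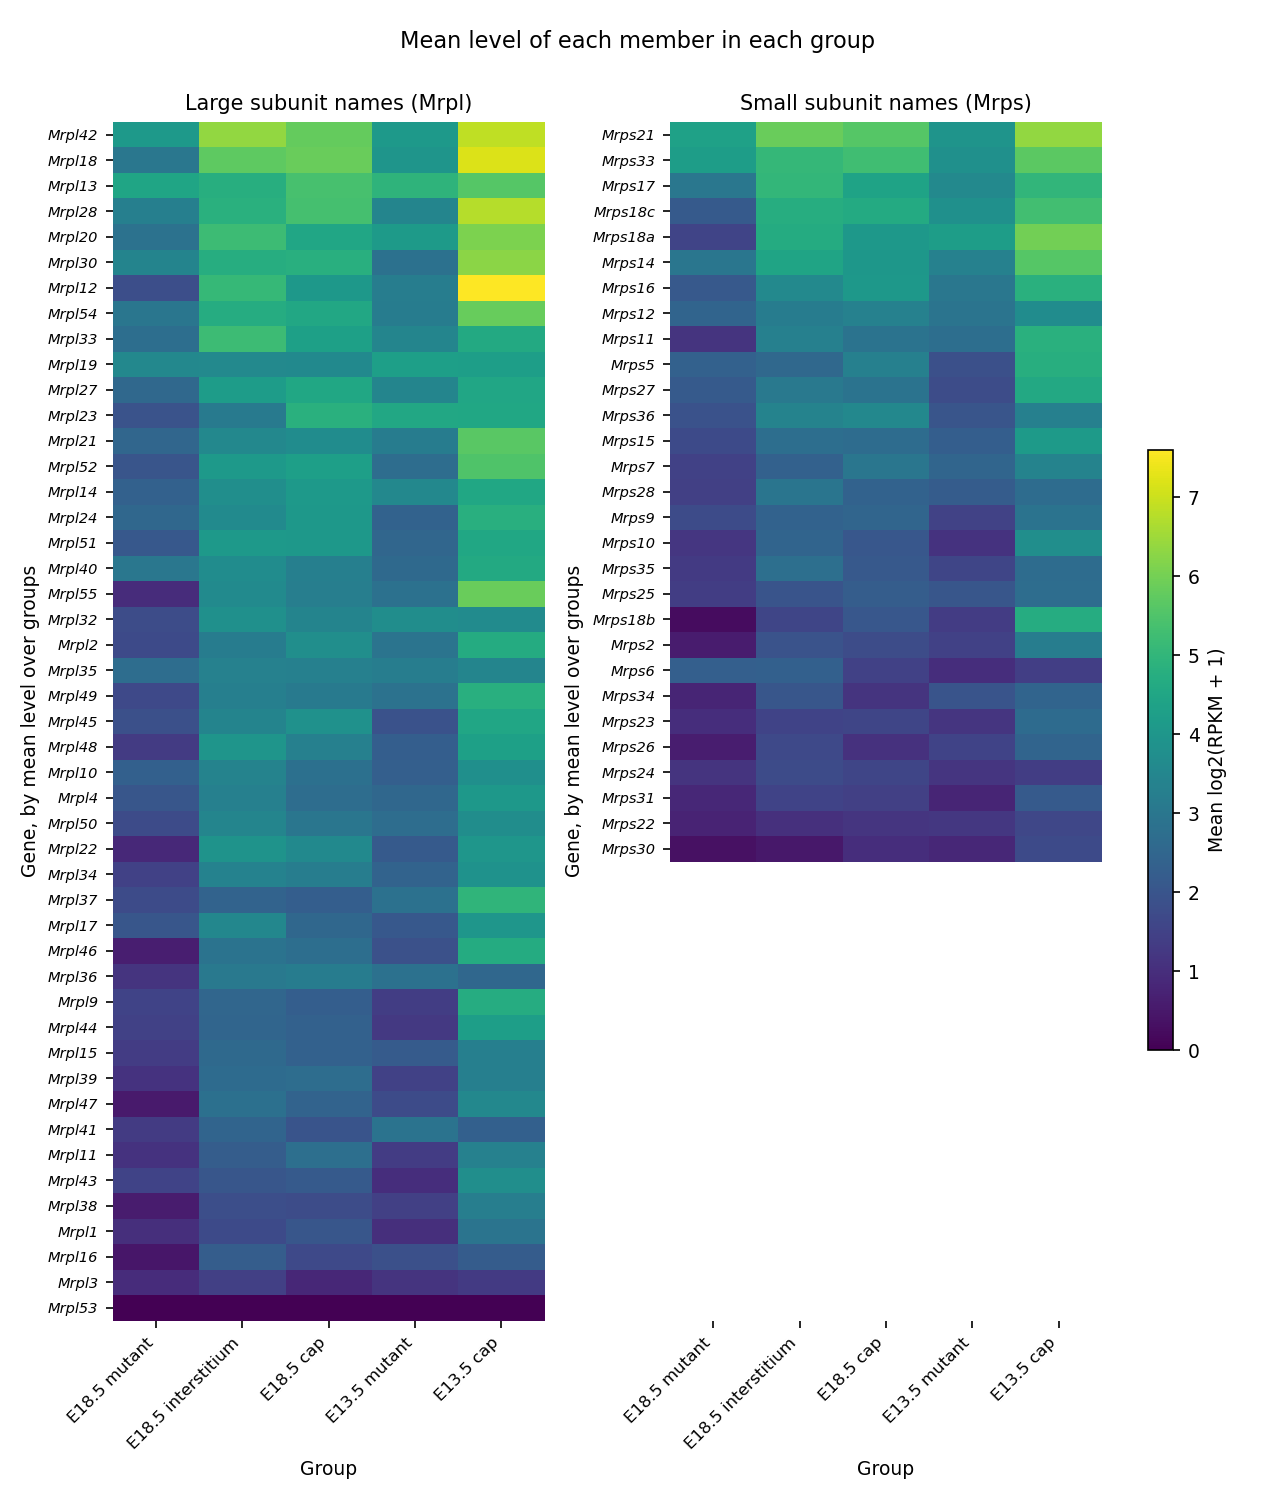
Mean log2(RPKM + 1) of each member (rows, ordered by the mean over groups) in the 5 groups (columns), for large-subunit names on the left and small-subunit names on the right; brighter colours are higher levels. The E13.5 cap column is brightest for 60 of 75 members, a count not computed over all entries, and Mrpl53 is at 0 throughout.

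Number of genes and member score moved together in every group. Across cells, Pearson's r between them was 0.84 in E18.5 mutant, 0.79 in E18.5 interstitium, 0.87 in E18.5 cap, 0.95 in E13.5 mutant and 0.74 in E13.5 cap cells. These values describe cells of 1 library each, in which both measures share the same depth. In bins of gene number the groups lay closer together. Between 3000 and 4000 genes the mean score was 1.79 in 23 E18.5 mutant cells, 2.10 in 11 E18.5 interstitium cells, 1.39 in 8 E18.5 cap cells and 1.26 in 5 E13.5 mutant cells. Between 4000 and 5000 genes it was 2.33 in 10 E18.5 mutant cells, 2.79 in 24 E18.5 interstitium cells, 2.52 in 18 E18.5 cap cells and 2.83 in 12 E13.5 mutant cells. In these bins the mean of E18.5 mutant cells was thus below that of interstitium cells in both, and above that of cap cells in the lower bin and below it in the upper. Gene number can still differ within a bin.

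**Figure D3:**
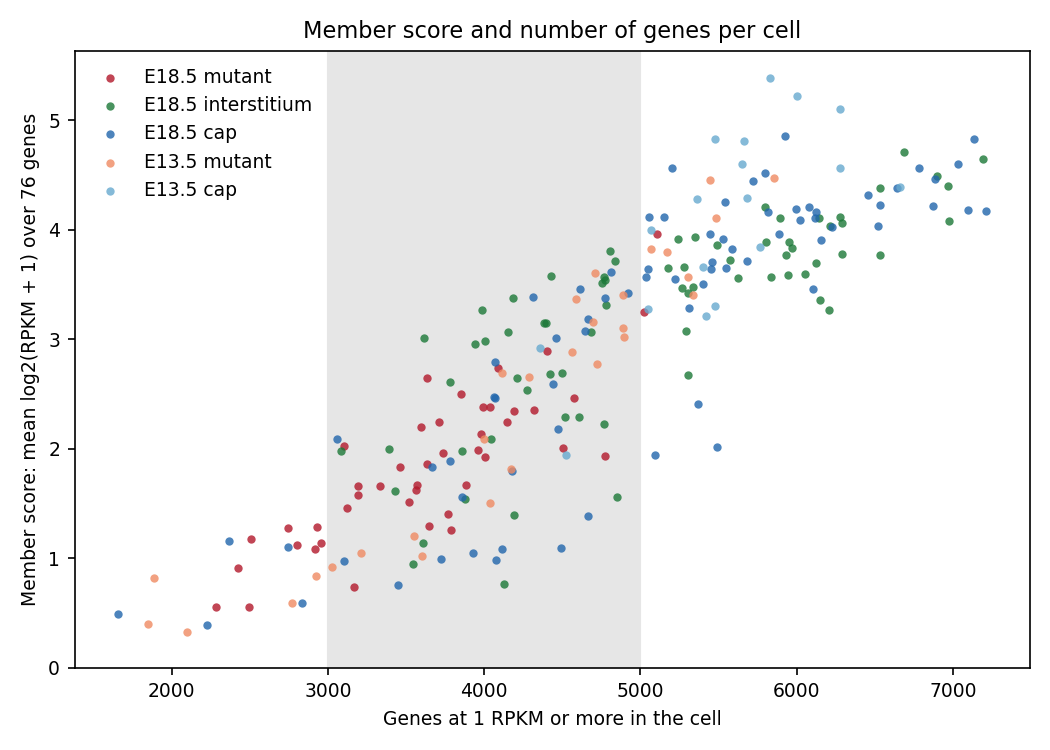
Member score (mean log2(RPKM + 1) over 76 genes) against the count of genes that reached 1 RPKM, 1 point per cell, coloured by group; the grey band marks 3000 to 5000 genes. Score and gene number rise together in all 5 groups (r of 0.74 to 0.95), and few E13.5 cap cells (2) lie in the band.

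E18.5 mutant cells were compared with E18.5 cap cells, the wild-type group whose label names cap mesenchyme and derived cells. These groups differ in Pax2 genotype, date and pool, whose parts cannot be told apart. Across all cells, 73 of 76 members had a lower mean in E18.5 mutant cells, and 44 were lower by 1 log2 unit or more, where 24.5% of 10491 entries were. The share of entries with any lower mean, here and below, was not computed. No member was higher by 1 log2 unit, where 4.6% of entries were. The median member differed by -1.20, against -0.43 for all entries, and the score by -1.27. The entries are those at 1 RPKM or more in 10% of the grouped cells, which 75 members were. Among the 3683 well-detected entries, those that reached 1 RPKM in 50% of cells, 40.3% were lower, as were 37 of the 50 members that passed this filter. The 50% is of all grouped cells, so entries can pass through groups where they are high. Within E18.5 mutant cells alone, 12 members reached 1 RPKM in 50% of cells or more, against 54 in E18.5 cap cells. The counts among well-detected entries, here and below, are therefore no separate check.

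The 5 most negative differences were those of Mrpl23 (-2.90), Mrpl18 (-2.85), Mrpl22 (-2.72), Mrps18c (-2.51) and Mrps18a (-2.50). Mrpl23 (gene ID 19935, mm10 chromosome 7, 142533117 to 142540742), whose bacterial homologue sits at the exit of the ribosomal tunnel, ranged from 0 to 189.8 RPKM with a median of 0 in E18.5 mutant cells, and from 0 to 417 with a median of 76.1 in E18.5 cap cells. Mrpl22 (gene ID 216767, chromosome 11, 58171654 to 58179581), whose bacterial homologue lines that tunnel, ranged from 0 to 142 RPKM with a median of 0 in E18.5 mutant cells, and from 0 to 378 with a median of 18 in E18.5 cap cells. Both genes had cells at 0 in either group, so their ranges overlapped, and the groups differed in the share of cells with a value. Mrpl23 was detected in 16 of 44 E18.5 mutant cells and 55 of 74 E18.5 cap cells, and Mrpl22 in 7 of 44 and 49 of 74. Mrpl18 (gene ID 67681, chromosome 17, 12911355 to 12916091), a large-subunit protein, had a median of 0.483 RPKM in E18.5 mutant cells (0 to 581) and 101.3 in E18.5 cap cells (0 to 698). Tcp1, whose exons overlap those of Mrpl18, had a mean log2 level of 4.03 in E18.5 mutant and 5.70 in E18.5 cap cells. No member had ranges that stood apart between any of the groups compared.

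Few members ran the other way. Mrps6 (gene ID 121022, chromosome 16, 92058322 to 92112227), a small-subunit protein whose bacterial homologue pairs with that of the Mrps18 proteins, was the most positive, at 0.83, with a mean log2 level of 2.30 ± 3.22 in E18.5 mutant cells and 1.48 ± 2.38 in E18.5 cap cells. It was detected in 16 of 44 and 23 of 74 of these cells, and its exons overlap those of the solute carrier gene Slc5a3 on the same strand. Slc5a3 had a mean log2 level of 1.57 in E18.5 mutant, 1.96 in E18.5 interstitium, 1.15 in E18.5 cap, 0.77 in E13.5 mutant and 1.59 in E13.5 cap cells. Its part in the values of Mrps6 was not tested. Among members, Mrpl3 followed Mrps6, at 0.14. Mrpl53 had no value, Mrpl19 differed by -0.07 and Mrpl40 by -0.25. Mrpl19, detected in 43 of 44 E18.5 mutant cells and 72 of 74 E18.5 cap cells, had medians of 10.3 and 10.4 RPKM in these groups.

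In cells with 3000 to 5000 genes the difference was smaller. The 33 E18.5 mutant cells of this range had a score of 1.96 ± 0.48 and the 26 E18.5 cap cells 2.17 ± 0.95, a difference of -0.22, which is within the spread of either group. Here 10 members were lower by 1 log2 unit, where 10.6% of entries were, and 3 were higher, where 9.04% were. The lower members are 13.2% of the 76, a share near that of all entries. The median member differed by -0.20 and the median entry by -0.05. The gene number within the range was still lower in E18.5 mutant cells (median 3769) than in E18.5 cap cells (4145), and the cells kept are a minority of the cap cells. In cells with 4500 to 6000 genes, a range chosen after the data were seen, the score was 2.72 ± 0.87 in 5 E18.5 mutant cells and 3.59 ± 0.77 in 32 E18.5 cap cells, a difference of -0.87. There 29 members were lower, where 24.9% of entries were, and 5 were higher, where 15.4% were, with a median member of -0.82 and a median entry of -0.28. Gene number was again lower in the mutant cells (median 4774, against 5383 in cap cells).

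The 10 members that were lower in cells with 3000 to 5000 genes were all among the 44 lower in all cells: Mrpl18, Mrpl2, Mrpl22, Mrpl23, Mrpl27, Mrpl45, Mrpl47, Mrpl52, Mrps18c and Mrps7. Cells with 3000 to 5000 genes are a part of all cells. Overlaps between the 2 sets, here and below, are therefore partly built in, and the overlap over all entries was not computed. The 5 most negative were Mrpl22 (-1.88), Mrpl52 (-1.75), Mrps18c (-1.70), Mrpl18 (-1.68) and Mrpl47 (-1.44). Mrps6 was again the most positive, at 1.63, with 14 of 33 E18.5 mutant cells and 5 of 26 E18.5 cap cells at 1 RPKM or more. Mrpl10 (1.06) and Mrpl40 (1.04) were the other members higher by 1 log2 unit, followed by Mrps27 (0.88) and Mrps12 (0.85), the homologue of a bacterial protein of the decoding centre. Between all cells and this range, 28 of the 76 members changed sign and 65 had a smaller difference. The large-subunit genes had a score difference of -0.37 in this range (8 of 47 lower, 2 higher) and the small-subunit genes 0.03 (2 of 29 lower, 1 higher), against -1.41 (32 of 47 lower) and -1.03 (12 of 29 lower) in all cells.

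E18.5 mutant cells were also set against interstitium cells, since both held stromal transcripts. In all cells 75 of 76 members had a lower mean in E18.5 mutant cells, 53 were lower by 1 log2 unit, where 24.2% of entries were, and none was higher, where 2.01% were. The score difference was -1.37, the median member -1.31 and the median entry -0.42. Of the 50 members in the group of well-detected entries 41 were lower, against 42.8% of those entries.

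In cells with 3000 to 5000 genes the score was 1.96 ± 0.48 in 33 E18.5 mutant cells and 2.57 ± 0.84 in 35 E18.5 interstitium cells, a difference of -0.62. Of the members 24 were lower by 1 log2 unit, where 11.4% of entries were, and none was higher, where 4.75% were. The median member differed by -0.60 and the median entry by -0.11. The difference is within the SD of the interstitium cells, and it was -0.40 at 3500 to 4500 genes. All 24 were among the 53 lower in all cells, an overlap that is again partly built in. In the 5 E18.5 mutant and 31 E18.5 interstitium cells with 4500 to 6000 genes the score difference was -0.70, with 27 members lower, where 21.4% of entries were, and 3 higher, where 13.8% were. At 3000 to 5000 genes the median gene number was 3769 in E18.5 mutant and 4209 in E18.5 interstitium cells, whose part in the difference was not tested.

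The members with the most negative differences from interstitium were Mrpl12 (-3.25 in all cells and -2.29 at 3000 to 5000 genes), Mrps18a (-3.13 and -2.14), Mrpl22 (-3.02 and -1.79), Mrpl18 (-2.69 and -1.68) and Mrpl55 (-2.67 and -2.04). Mrpl48 joined the 5 most negative at 3000 to 5000 genes, with -2.06. Mrpl12 (gene ID 56282, chromosome 11, 120484669 to 120488754) is a large-subunit protein that in human cells also binds the mitochondrial RNA polymerase. It ranged from 0 to 274 RPKM with a median of 0 in E18.5 mutant cells and from 0 to 385 with a median of 61.8 in E18.5 interstitium cells. It was detected in 14 of 44 E18.5 mutant cells and 61 of 71 E18.5 interstitium cells, with overlapping ranges. The least negative in all cells were Mrps6 (-0.02), Mrpl19 (-0.02), Mrps30 (-0.16) and Mrps5 (-0.22). In cells with 3000 to 5000 genes the most positive were Mrps6 (0.69), Mrpl19 (0.60), Mrps33 (0.55), Mrps25 (0.49) and Mrps12 (0.47).

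Interstitium and cap cells of wild-type kidneys had close levels of the family at E18.5 when all cells were used. The score of interstitium cells was 0.10 above that of cap cells, the median member 0.13 and the median entry 0.01. Only Mrpl23 was lower by 1 log2 unit, where 2.88% of entries were, and only Mrpl12 was higher, where 6.31% were. Among well-detected entries 3.18% were lower, and Mrpl23 was again the 1 member of 50. Mrpl23 had a median of 9.57 RPKM in E18.5 interstitium cells (0 to 296) and 76.1 in E18.5 cap cells (0 to 417), a difference of -1.69. It was -1.73 with the 22 interstitium cells of pool 2, the pool of the cap cells, -1.67 with the 49 cells of pool 3 and -1.19 at 3000 to 5000 genes. Mrpl12 differed by 1.04, with medians of 61.8 RPKM in E18.5 interstitium and 43.2 in E18.5 cap cells.

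The other named members differed by less than 1 log2 unit. They were Mrps5 (-0.73), Mrpl13 (-0.63), Mrps7 (-0.62) and Mrpl2 (-0.57) on the negative side, and Mrpl17 (0.98), Mrpl33 (0.89), Mrps34 (0.89) and Mrps6 (0.85) on the positive side. Within pool 2 the score difference was -0.10, with 7 members lower, where 5.7% of entries were, and 1 higher, where 7.64% were. In cells with 3000 to 5000 genes the score was 2.57 ± 0.84 in 35 interstitium cells and 2.17 ± 0.95 in 26 cap cells, 0.40 higher. There 16 members were higher by 1 log2 unit, where 10.8% of entries were, and Mrpl23 alone was lower, where 5.19% were. Mrpl48 (1.84), Mrpl10 (1.74), Mrpl17 (1.71), Mrpl12 (1.65) and Mrpl50 (1.47) were the most positive. In 31 and 32 cells with 4500 to 6000 genes the score difference was -0.17, with 8 members lower, where 7.13% of entries were, and 3 higher, where 7.57% were. The sign of the score difference thus depended on which cells were kept.

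At E13.5 the family was lower in mutant than in cap cells. Both groups lie in pool 3. Of the members 70 had a lower mean in E13.5 mutant cells, 55 were lower by 1 log2 unit, where 30% of entries were, and none was higher, where 1.48% were. The score difference was -1.65, the median member -1.78 and the median entry -0.50. Among well-detected entries 48.9% were lower, as were 40 of 50 members.

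Mrpl12 stood at the end of the list, at -4.39. It ranged from 0 to 463 RPKM with a median of 6.74 in E13.5 mutant cells, and from 39.2 to 568 with a median of 223 in E13.5 cap cells, all 18 of which held it. Mrpl30 (-3.46), Mrps18b (-3.34), Mrpl9 (-3.30) and Mrpl28 (-3.28) followed. Mrpl41 (0.57), Mrpl36 (0.30), Mrpl32 (0.06), Mrpl23 (0.04) and Mrpl19 (0.03) were the only members above 0. Mrpl23, the most negative member at E18.5, was thus detected in 20 of 29 E13.5 mutant cells and 13 of 18 E13.5 cap cells, at medians of 34.8 and 78.2 RPKM.

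Only 2 E13.5 cap cells had 3000 to 5000 genes, with scores of 1.95 and 2.92, so this range could not serve at E13.5. In cells with 4500 to 6000 genes, a range chosen after the data were seen, the score was 3.53 ± 0.53 in 15 E13.5 mutant cells and 4.05 ± 0.93 in 14 E13.5 cap cells, a difference of -0.52 that is within 1 SD of the cap cells. Of the members 24 were lower by 1 log2 unit, where 14.3% of entries were, and 5 were higher, where 6.82% were. The median member differed by -0.29 and the median entry by -0.14. Gene number was still lower in the mutant cells of this range (median 4894, against 5479.5 in cap cells). Mrpl43 (-2.79), Mrps5 (-2.75), Mrpl30 (-2.75), Mrps10 (-2.55) and Mrpl12 (-2.33) were the most negative, and Mrpl36 (2.40), Mrpl41 (1.70) and Mrpl32 (1.46) the most positive.

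**Figure D4:**
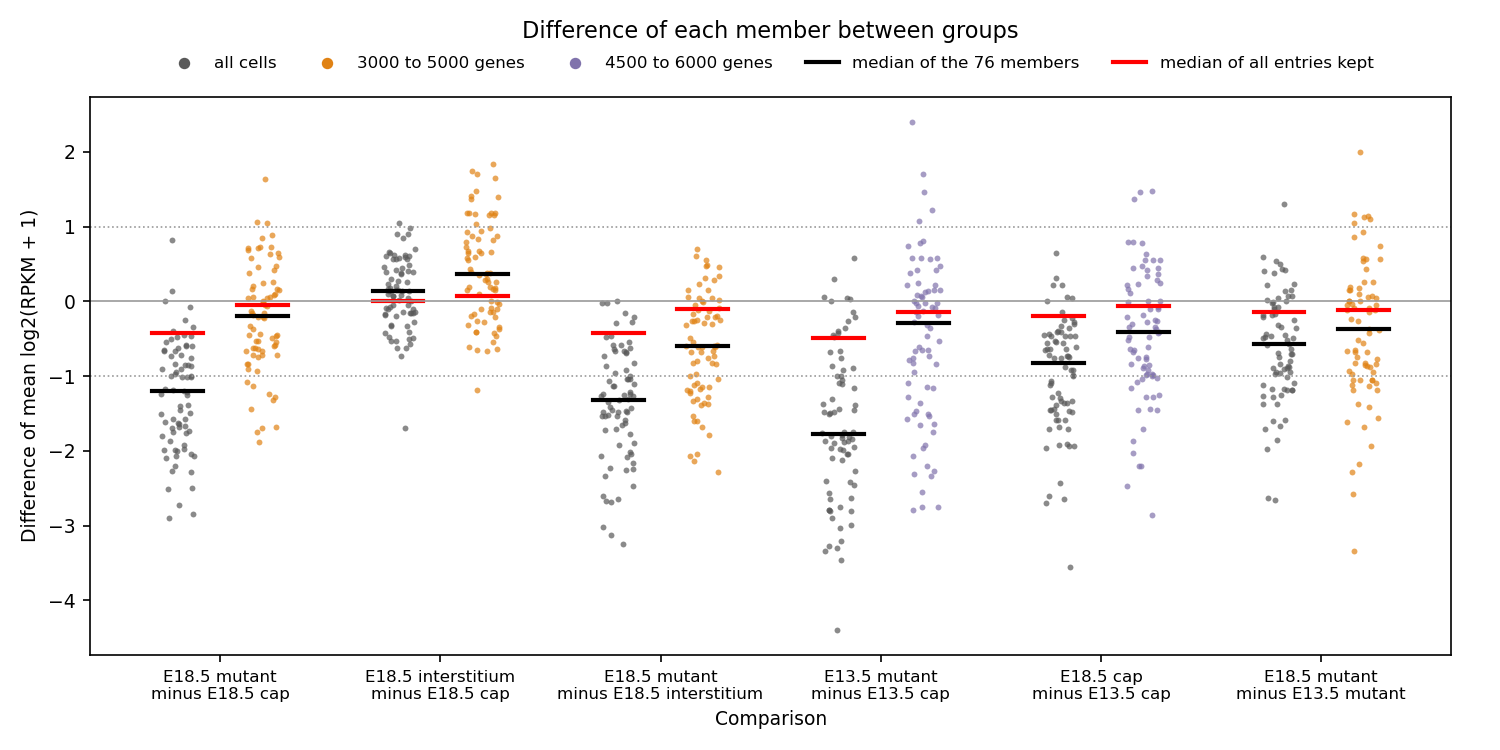
Difference of mean log2(RPKM + 1) of each of the 76 members in 6 comparisons, in all cells (grey) and in cells of like gene number (orange for 3000 to 5000 genes, purple for 4500 to 6000); black lines are medians of the members, red lines medians of 10491 entries, and dotted lines mark 1 log2 unit. For E18.5 mutant minus cap the member median is -1.20 in all cells and -0.20 at 3000 to 5000 genes.

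Between the ages, wild-type cap cells held less of the family at E18.5 than at E13.5. Of the members 33 were lower by 1 log2 unit at E18.5, where 15.6% of entries were, and none was higher, where 2.72% were. The score difference was -0.99, the median member -0.82 and the median entry -0.20, and among well-detected entries 24.3% were lower, as were 20 of 50 members. Mrpl12 was again the most negative (-3.56), with a median of 43.2 RPKM in E18.5 cap cells (0 to 754) and 223 in E13.5 cap cells (39.2 to 568). Mrpl37 (-2.70), Mrps18b (-2.64), Mrpl55 (-2.60) and Mrpl9 (-2.42) followed, and Mrpl36 (0.65), Mrpl23 (0.31) and Mrps36 (0.22) were the most positive. The human homologue of Mrps36 has been described as a part of the alpha-ketoglutarate dehydrogenase complex. With 32 and 14 cells of 4500 to 6000 genes the score difference was -0.45, with 17 members lower, where 10.2% of entries were, and 3 higher, where 6.84% were, and Mrpl12 was still the most negative (-2.86). Without cells in which the pseudogene LOC100503946 reached 20000 RPKM the score difference was -0.47 and the median member -0.29.

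E18.5 mutant cells were set against E13.5 mutant cells last, which differ in age, date and pool. The score difference was -0.61, within 1 SD of either group, the median member -0.57 and the median entry -0.15. Of the members 21 were lower by 1 log2 unit, where 11.8% of entries were, and 1, Mrps6 (1.31), was higher, where 6.75% were. Among well-detected entries 19.7% were lower, as were 14 of 50 members. Mrps18a (-2.66), Mrpl23 (-2.63), Mrpl32 (-1.98), Mrpl55 (-1.86) and Mrpl36 (-1.71) were the most negative. At 3000 to 5000 genes, in 33 E18.5 and 17 E13.5 mutant cells, the score difference was -0.41, with 19 members lower, where 12.6% of entries were, and 6 higher, where 8.37% were. The median gene number of these cells was 3769 at E18.5 and 4288 at E13.5. Mrps18a (-3.33) and Mrpl23 (-2.58) were again the most negative, and Mrps6 (1.99) the most positive. With 5 and 15 cells of 4500 to 6000 genes the score difference was -0.81, with 35 members lower, where 22.1% of entries were, and 5 higher, where 17% were. At 3500 to 4500 genes (23 and 7 cells) it had the other sign, at 0.20.

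The Mrps18 paralogues had the same groups at both ends and differed in how many cells held them. All are relatives of a single bacterial small-subunit protein, and in the human mitoribosome the homologue of Mrps18a sits in the large subunit and those of Mrps18b and Mrps18c in the small subunit. Mrps18a (gene ID 68565, chromosome 17, 46111004 to 46128908) had medians of 0 RPKM in E18.5 mutant, 47.4 in E18.5 interstitium, 32.3 in E18.5 cap, 22.1 in E13.5 mutant and 72.8 in E13.5 cap cells. Mrps18b (gene ID 66973, chromosome 17, 35910385 to 35916369) had a median of 56.2 RPKM in E13.5 cap cells and 0 in each other group. It was detected in 2 of 44 E18.5 mutant, 19 of 71 E18.5 interstitium, 26 of 74 E18.5 cap, 8 of 29 E13.5 mutant and 13 of 18 E13.5 cap cells. Mrps18c (gene ID 68735, chromosome 5, 100798759 to 100804469) had medians of 0.0570 RPKM in E18.5 mutant, 50.7 in E18.5 interstitium, 32.8 in E18.5 cap, 21 in E13.5 mutant and 63.5 in E13.5 cap cells. All were lowest in E18.5 mutant cells and highest in E13.5 cap cells, and Mrps18b differed from the others in being at 0 in most wild-type cells of E18.5.

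Mrpl13 and Mrpl19 were the steadiest members in detection. Mrpl13 (gene ID 68537, chromosome 15, 55534095 to 55557312) ranged from 4.67 to 97.8 RPKM in E18.5 mutant, 5.92 to 98.6 in E18.5 interstitium, 5.07 to 243 in E18.5 cap, 1.67 to 199 in E13.5 mutant and 17.2 to 121 in E13.5 cap cells. Its medians were 20.2, 27.7, 42.7, 29.7 and 41.1 RPKM in the same order. The SD between cells was 0.82 to 1.33 log2 units for Mrpl13, against 2.19 to 3.05 for Mrps18c, which was at 0 in some cells of each group. The Mrpl13 exons overlap those of Mtbp on the opposite strand. Across cells, the level of a member followed the mean of the other members with a median r of 0.22 in E18.5 mutant, 0.34 in E18.5 interstitium, 0.49 in E18.5 cap, 0.47 in E13.5 mutant and 0.36 in E13.5 cap cells, values that share the depth of each cell.

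The members were set beside other genes of mitochondria and ribosomes, chosen by symbol pattern or from lists. Of all entries 24.5% were lower by 1 log2 unit in E18.5 mutant than in cap cells, and 4.6% were higher. In E18.5 mutant minus cap cells the score difference was -1.27 for the members, -0.39 for 87 cytosolic ribosomal protein genes (7 lower by 1 log2 unit, none higher) and -0.83 for 82 nuclear genes of oxidative phosphorylation subunits (34 lower, 1 higher). For 7 mitoribosome proteins whose names fall outside the pattern, such as Dap3 (-1.50) and Ptcd3 (-1.29), it was -1.33 (5 lower). At 3000 to 5000 genes these lists stood at -0.22, 0.08, 0.25 and -0.08 in the same order. Of 82 oxidative phosphorylation genes, 20 were there higher by 1 log2 unit, where 9.04% of entries were, and 7 lower, where 10.6% were. Across cells the member score and the oxidative phosphorylation score had an r of 0.82 in E18.5 mutant, 0.87 in E18.5 interstitium, 0.93 in E18.5 cap, 0.95 in E13.5 mutant and 0.73 in E13.5 cap cells, which share depth as well.

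Among genes that act with the mitoribosome, the share lower by 1 log2 unit in E18.5 mutant than in cap cells did not exceed the 24.5% of all entries. Of 12 mitochondrial translation factors 2 were lower, the elongation factor genes Tufm (-2.08) and Tsfm (-2.02), and both were also lower at 3000 to 5000 genes (-1.55 and -1.86). Of 23 genes for mitoribosome assembly and ribosomal RNA modification 3 were lower, among them Gtpbp10 (-1.55) and Eral1 (-1.24), and Mterfd2, whose product guides RNA methylation in mitochondria, was higher (2.31). Both lists are of lower level than the members, with scores of 1.26 and 0.87 in E18.5 mutant cells. A gene near 0 in both groups cannot reach a difference of 1 log2 unit.

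Among lists of other mitochondrial functions, the citrate cycle enzymes and the import genes had larger score differences than the members (-1.27). Of all entries 24.5% were lower by 1 log2 unit. In E18.5 mutant minus cap cells, 9 of 13 citrate cycle enzymes were lower (score -1.63), with citrate synthase, Cs, at -2.92 and Mdh2 at -2.26. Of 10 import and chaperone genes 6 were lower (score -1.51), led by the matrix chaperones Hspd1 (-3.40), Hspe1 (-2.91) and Hspa9 (-2.55). Cs (-2.12), Hspd1 (-2.70) and Hspa9 (-1.97) were lower at 3000 to 5000 genes as well. Of 10 genes for transcription and replication of mitochondrial DNA 5 were lower (score -0.94), among them Ssbp1 (-1.61), Slirp (-1.38) and Tfam (-1.06). At 3000 to 5000 genes none of the 10 was (score -0.08), where 10.6% of entries were. Of 10 nuclear regulators of mitochondrial biogenesis 3 were lower, a share near that of all entries. They were Myc (-2.92), Gabpb1 (-1.31), a subunit of the ETS factor GABP, and Mycn (-1.20). Nrf1 differed by -0.35, Yy1 by -0.70, Gabpa by -0.73 and Ppargc1a by 0.21.

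**Figure D5:**
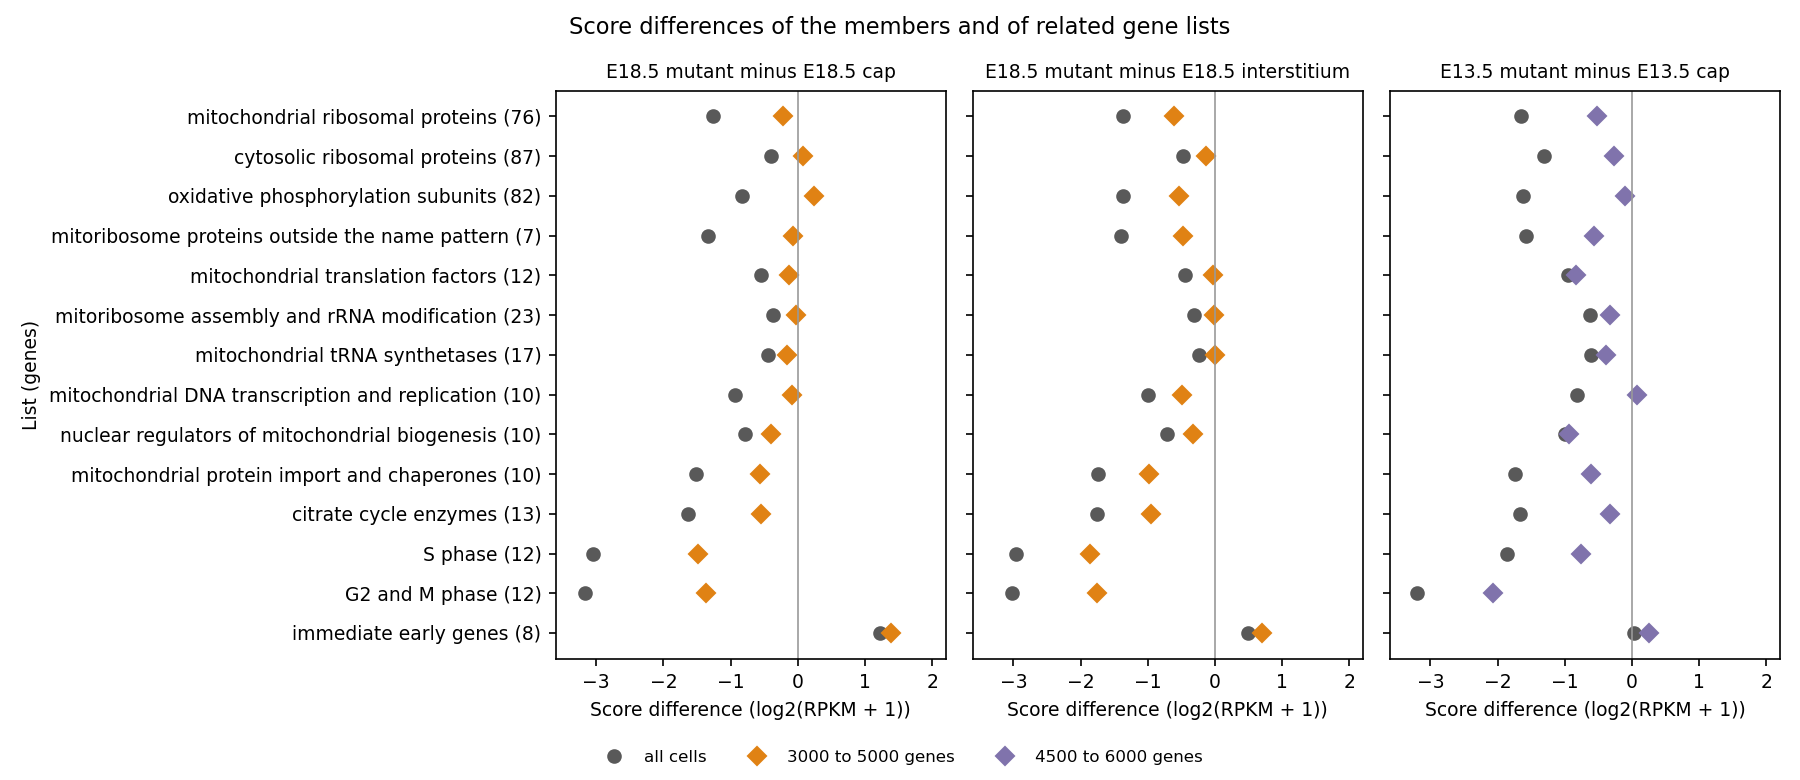
Score difference (mean log2(RPKM + 1) over the genes of a list, number of genes in parentheses) for the members and 13 related lists in 3 comparisons, in all cells (circles) and in cells of like gene number (diamonds). For E18.5 mutant minus cap the members stand at -1.27 in all cells and -0.22 at 3000 to 5000 genes, while the S phase list stands at -3.05 and -1.48.

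Markers of cell division moved with the same comparisons. Of all entries 24.5% were lower by 1 log2 unit in E18.5 mutant than in cap cells. All 12 S phase genes and all 12 G2 and M phase genes were (scores -3.05 and -3.17). All of these genes were also lower than in interstitium cells (-2.97 and -3.02), where 24.2% of entries were. At 3000 to 5000 genes 9 and 8 of them were lower than in cap cells, where 10.6% of entries were. Across all cells of a group, the member score and the G2 and M phase score had an r of 0.01 in E18.5 mutant, 0.38 in E18.5 interstitium, 0.49 in E18.5 cap, 0.48 in E13.5 mutant and 0.44 in E13.5 cap cells. These values share the depth of each cell. At 3000 to 5000 genes r was 0.14 in E18.5 mutant, -0.13 in E18.5 interstitium, -0.36 in E18.5 cap and 0.24 in E13.5 mutant cells. At 4500 to 6000 genes it was 0.39 in E18.5 interstitium, 0.41 in E18.5 cap, 0.49 in E13.5 mutant and 0.34 in E13.5 cap cells. Of 8 immediate early genes 4 were higher in E18.5 mutant than in cap cells, where 4.6% of entries were (score 1.22 higher). Of these 8 genes 1 was lower, where 24.5% of entries were. The part of cell division, stromal content or RNA quality in the differences of the members was not tested.

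At E13.5 the other families moved nearly as far as the members. In E13.5 mutant minus cap cells 30% of all entries were lower by 1 log2 unit. The score difference was -1.65 for the members, -1.31 for cytosolic ribosomal proteins (67 of 87 lower) and -1.62 for oxidative phosphorylation subunits (65 of 82 lower). At 4500 to 6000 genes they stood at -0.52, -0.27 and -0.11. Cytosolic ribosomal proteins differed between mutants of the 2 ages in the other direction from the members, with E18.5 minus E13.5 mutant at 0.63 (24 of 87 higher, none lower), against -0.61 for the members. Of all entries 6.75% were higher there and 11.8% lower. At 3000 to 5000 genes the score difference was 0.48 for cytosolic ribosomal proteins and -0.41 for the members.

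Genes that start beside a member in the opposite direction had differences close to those of all entries. In E18.5 mutant minus cap cells the 17 members with such a partner had a median difference of -1.24, with 9 lower by 1 log2 unit, and the partners -0.42, with 3 lower, where all entries had a median of -0.43 and 24.5% were lower. The 3 partners were Ncapd2 (-2.78, beside Mrpl51 at -1.97), Psma2 (-2.03, beside Mrpl32 at -1.68) and Ptcd2 (-1.11, beside Mrps27 at -0.72). In E13.5 mutant minus cap cells 13 of these members and 5 of the partners were lower, with medians of -1.94 and -0.47, where all entries had -0.50 and 30% were lower. The partners include genes near 0 in both groups, such as Lrrc46.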

How the data were processed

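Single-cell RNA was measured in 237 cells. The authors deposited 1 table of RPKM per gene entry and cell; RPKM corrects for transcript length and library size. Per the submitters' processing notes, TopHat and mm10 were used. The aligner's version, gene models, counting rule and handling of strand are not given in the sources used here. Counts were not used here, so depth per cell is unknown. Groups follow the labels for source, genotype and age, and 1 cell with conflicting labels was left out. Values were taken as log2(RPKM + 1) with a pseudocount of 1 and averaged per group. Every cell was kept and no doublet caller was used. With 1 sample per group (no embryo is named) no p-value was computed, and shares of cells cover counting error only. The floor for a share of 0 is 3 cells of the group.

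The members and gene lists were chosen with earlier results of these data known. Named members are the 10 highest and 5 lowest in mean level, the 5 most positive and 5 most negative in each comparison, also at 3000 to 5000 genes for E18.5 mutant cells, and the Mrps18 paralogues. Members named beyond this, and genes of other lists, were chosen after their values were seen. A background of 10491 entries was at 1 RPKM or more in 10% of cells. Of 186 list symbols 1 had no entry. The calculation of the difference was run on simulated data with 200 changed genes. These were normal values with less spread than most members and no group difference in gene number. The run therefore checks the arithmetic only. Promoter sequences are from RefSeq (GRCm38.p6) and overlaps from GENCODE M21. Python 3.11.15, numpy 2.4.6, pandas 2.3.3 and matplotlib 3.10.9 were used. Alternatives were other pseudocounts, scalings, filters, ranges of gene number and pools. The genes of 1 list, the mitochondrial aminoacyl-tRNA synthetases, are not reported singly here.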

Additional observations from a re-analysis of the deposited data

How the results depend on the processing

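Of 51 alternatives for the score differences, 5 changed the sign, 4 of them by less than 1 SD between cells, and 5 others moved by more than 1 SD. Of 63 alternatives for the number of members past 1 log2 unit, 34 stayed within 1.5 times and 29 did not, and the number of members detected per cell stayed within 1 SD in 10 of 10. For E18.5 mutant minus cap the score difference of -1.27 was -0.22 with 13 members past 1 log2 unit at 3000 to 5000 genes, and 0.10 with 17 members (7 lower and 10 higher) at 3500 to 4500 genes, against 44 in all cells. With a pseudocount of 10 the score difference was -0.54 and the number 11. As ratios of group mean RPKM they were -0.39 and 20. Both shifts of the score were under 1 SD between cells (1.03). For E18.5 interstitium minus cap the number of 2 became 10 with a pseudocount of 0.1, 1 with 10, 7 as ratios of mean RPKM, 17 and 22 at 3000 to 5000 and 3500 to 4500 genes, 6 without cells in which the pseudogene LOC100503946 reached 20000 RPKM, 8 within pool 2 and 11 at 4500 to 6000 genes. The last 3 settings also turned its score difference to -0.30, -0.10 and -0.17. For E18.5 mutant minus interstitium the score difference of -1.37 was -2.26 with a pseudocount of 0.1, -0.40 as ratios of mean RPKM and -0.40 at 3500 to 4500 genes. Its number of 53 became 14 with a pseudocount of 10, 18 as ratios, 24 at 3000 to 5000, 25 (20 lower and 5 higher) at 3500 to 4500 and 30 at 4500 to 6000 genes. For E13.5 mutant minus cap the number of 55 became 26 with a pseudocount of 10, 27 as ratios and 29 at 4500 to 6000 genes, where the score difference was -0.52. For E18.5 cap minus E13.5 cap 33 became 13 with a pseudocount of 10, 15 as ratios, 20 among members in 50% of cells and 20 at 4500 to 6000 genes, and without pseudogene-high cells the score difference of -0.99 was -0.47 (21 lower and 2 higher). For E18.5 minus E13.5 mutant 22 became 39 with a pseudocount of 0.1, 2 with 10, 42 without pseudogene-high cells, 40 at 4500 to 6000 genes and 14 among members in 50% of cells, and at 3500 to 4500 genes the score difference was 0.20 (7 lower and 20 higher). The causes were not tested. No paired analysis was possible because the labels tie no cell of a group to a cell of any other group. The E13.5 cap cells were too few (2 at 3000 to 5000 genes, under the 5 required) for those ranges, and the range of 4500 to 6000 genes was chosen after the data were seen.

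Without counts or named embryos, the differences describe these cells. Gene number per cell followed the member score within every group, group and date cannot be told apart, and a median of 0 RPKM does not show that a cell lacks a transcript. Cells of like gene number are a part of each group.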

Other observations

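The cell whose labels conflict held 6570 genes, a member score of 4.93, 69 of the 76 members at 1 RPKM or more and 1.06% of its RPKM in members. With 75 members that had any value, the correlation between a member and the mean of the others across cells was lowest for Mrpl13 in E18.5 mutant cells (r of -0.15), Mrps30 in E18.5 interstitium (0.03), Mrpl19 in E18.5 cap (-0.11), Mrpl38 in E13.5 mutant (-0.13) and Mrpl9 in E13.5 cap cells (-0.48). It was highest for Mrps16 (0.58), Mrpl42 (0.58), Mrps36 (0.75), Mrps14 (0.87) and Mrpl34 (0.80) in the same order of groups.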
